A study of Caenorhabditis elegans with 6 samples.

Results

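Cytochrome P450 genes were examined in whole Caenorhabditis elegans of 2 genotypes, the wild-type strain N2 and the mutant atfs-1(et18), with 3 biological replicates each. Worms of both genotypes had been synchronised by bleaching, grown on plates with the bacterial food E. coli OP50 and collected at L4, the last larval stage. RNA was measured on 1-colour Affymetrix arrays, on which a probe set is a group of short probes for 1 transcript. ATFS-1 is a transcription factor that switches on genes when mitochondria are under stress, and its allele et18 is known as a gain-of-function point mutation; the labels name this 1 mutant allele and give no rescued or second mutant strain. The members were all probe sets whose single annotated gene symbol is cyp- followed by a number: 78 of 22548 probe sets, for 73 genes of 25 subfamilies. A subfamily carries the number and first letter of the symbol, such as cyp-35A. Of these genes, 3 (cyp-29A1, cyp-31A1 and cyp-34A3) are listed as pseudogenes in the RefSeq gene table.

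Cytochromes P450 are heme enzymes that insert an oxygen atom into a lipophilic substrate, with electrons passed to them from an NADPH-dependent reductase and, for some, cytochrome b5. In animals they start the breakdown of drugs and plant or bacterial toxins, and they also make signalling molecules from sterols and fatty acids. C. elegans has a large family. Much of it consists of recent gene copies, of which the cyp-35 genes are known to respond to foreign compounds in the intestine, and it includes 1 gene of the mitochondrial type, cyp-44A1.

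Across the arrays the signal level set what could be seen. The 40th percentile of an array, used as the limit for dim probe sets, lay between signals of 62.8 and 80.7, and between 42 and 49 of the 78 P450 probe sets were above it on any 1 array. A probe set was tested if it was above that percentile on at least 3 of the 6 arrays, which held for 46 probe sets of 42 genes; 35 were above it on all 6 arrays. Of the other 32, 21 were below it on every array. Correlations of log2 signals over all probe sets tested were 0.937 to 0.973 within a genotype and 0.895 to 0.941 between genotypes. The transcript of atfs-1 itself had signals of 207, 284 and 277 in wild-type and 346, 355 and 289 in mutant worms (log2 change 0.38 ± 0.20 SE, adjusted p = 0.400), which is no check of the labels for a point mutation. In whole worms, a change in the number of cells of a type and a change in RNA per cell cannot be told apart.

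In atfs-1(et18) worms 6 P450 genes rose and 3 fell. The genes that rose were cyp-14A4, cyp-33C8, cyp-13A8, cyp-14A1, cyp-37B1 and cyp-33C4, and those that fell were cyp-35D1, cyp-35C1 and cyp-35A3. Of 46 P450 probe sets tested, 9 passed the threshold, or 19.6%, beside 3.93% of all 13792 probe sets tested (limma, adjusted p under 0.05 over all of them). Upward calls were 6 of 46 beside 2.63% of all probe sets tested, and downward calls 3 of 46 beside 1.30%. Of the tested probe sets, 2 entered through the mutant arrays alone (cyp-14A4 and cyp-13A8) and 1 through the wild-type arrays alone (cyp-35D1), so that these 3 could not enter without differing.

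The family did not move one way. Of the 46 tested probe sets 22 had a positive and 24 a negative change, with a median log2 change of -0.03 beside -0.01 over all probe sets tested. The median size of the change, without its sign, was 0.48 on the log2 scale for the P450 probe sets and 0.25 for all. Their spread between replicates was similar, with a median within-genotype SD of 0.33 log2 units beside 0.28. The 3 arrays of the genotypes did not overlap for 20 P450 probe sets (43.5%), beside 23.3% of all tested. Of these 20, 11 were not called, 4 of them higher and 7 lower in the mutant. A further description of the uncalled members is that 6 of 37 had an unadjusted p under 0.05, beside 13.8% of all uncalled probe sets, and that 15 of the 46 lay within 0.3 log2 units of 0.

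**Figure D1:**
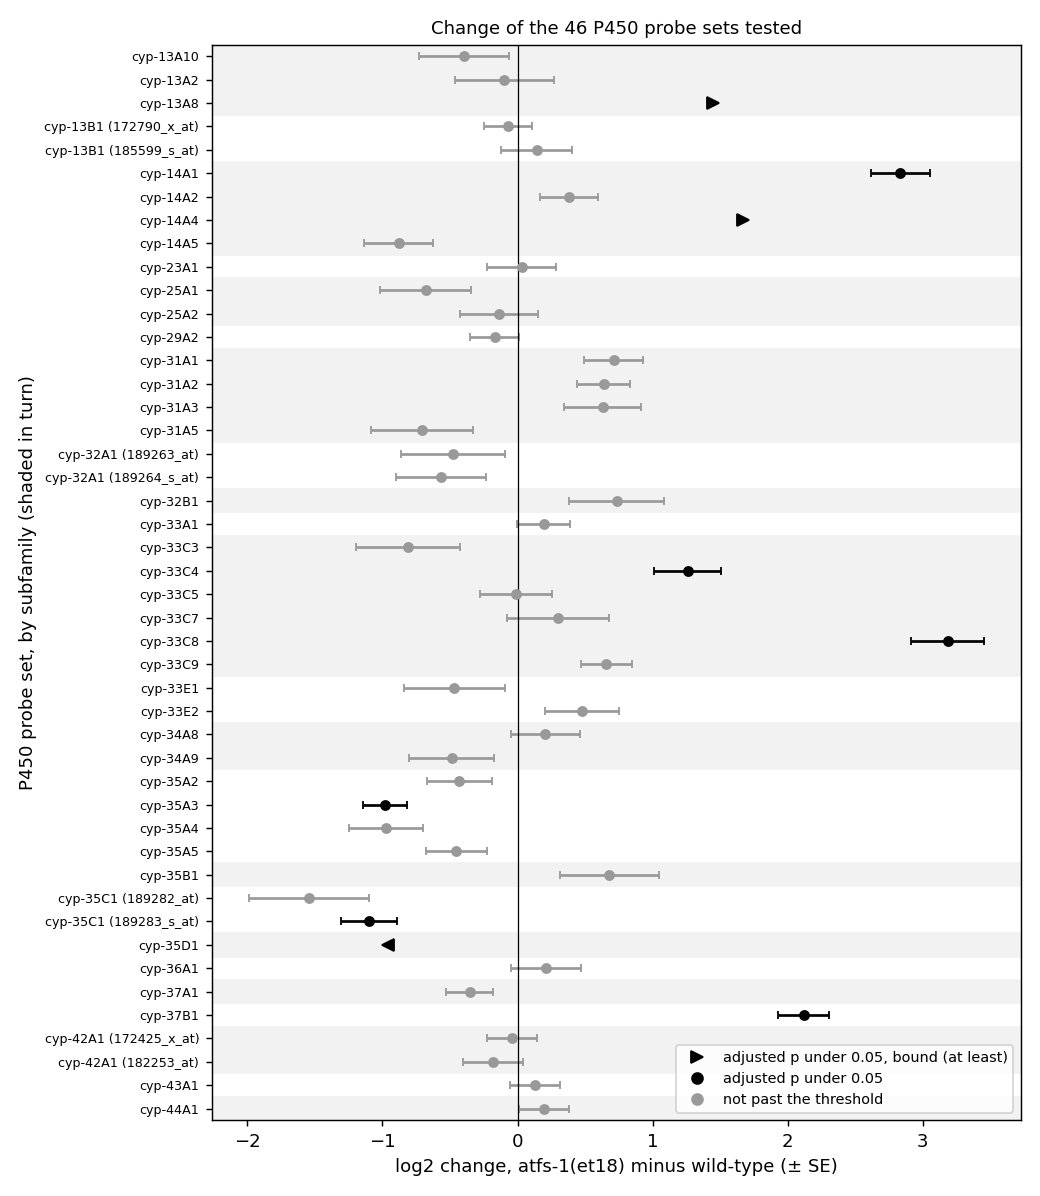
Log2 change (atfs-1(et18) minus wild-type, horizontal axis, with its SE as a bar) of the 46 P450 probe sets tested, ordered by subfamily with alternate shading; triangles mark cyp-14A4, cyp-13A8 and cyp-35D1 at the lower bound of their change, since 1 genotype was below the 40th percentile on all its arrays. The 9 black symbols passed the threshold; all tested cyp-35 symbols except cyp-35B1 lie left of 0, and the points of cyp-33C8, cyp-14A1 and cyp-37B1 lie beyond 2 on the right.

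**Figure D2:**
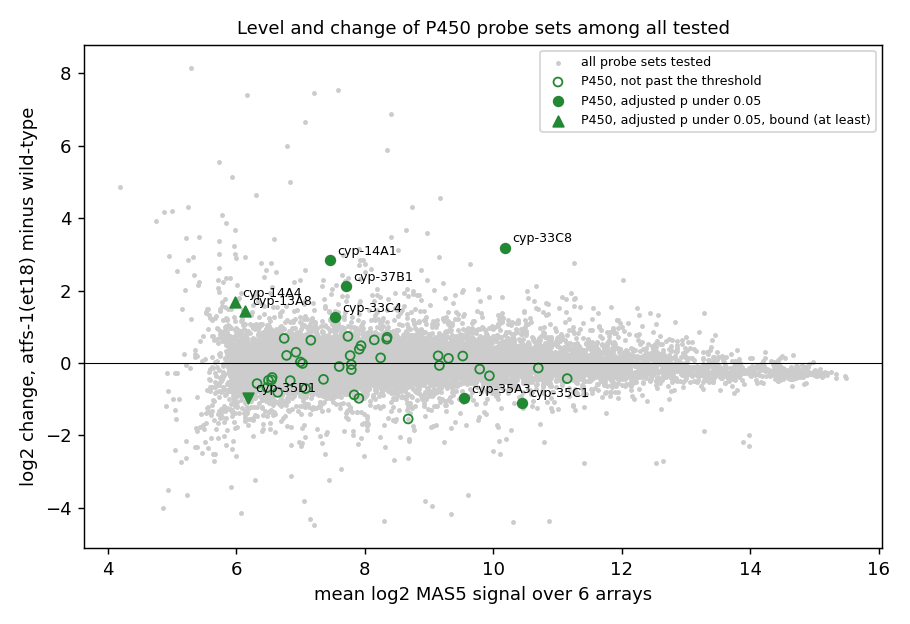
Mean log2 signal over 6 arrays (horizontal axis) against log2 change (vertical axis) for all 13792 probe sets tested in grey and the 46 P450 probe sets in green, filled where adjusted p was under 0.05. Grey points are fitted changes, and cyp-14A4, cyp-13A8 and cyp-35D1, at the dim end, are triangles at the lower bound of their change.

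The cyp-14A genes, which belong with cyp-33, cyp-34, cyp-35 and cyp-36 to the worm enzymes most related to the drug-metabolising CYP2 enzymes of vertebrates, held 2 of the 6 rises. Of 4 tested probe sets 2 rose and 0 fell, beside 2.63% of all probe sets called higher and 1.30% lower. Of these 2, cyp-14A4 entered through the mutant arrays alone and could not enter without differing. For cyp-14A1 the signals were 60.8, 80.3 and 59.6 in wild-type and 465, 475 and 475 in mutant worms. All 3 mutant arrays were nearly equal and far above the wild-type arrays, of which 1 was above the 40th percentile. Its log2 change was 2.83 ± 0.22 (SE, limma adjusted p = 0.000279), or 7.12-fold, and it was called in each of 17 alternatives. The size of this fold rests on dim wild-type signals, and the log2 change was 2.04 with 64 added to each signal.

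The signals of cyp-14A4 were 31.9, 6.91 and 25.5 in wild-type and 226, 225 and 228 in mutant worms. No wild-type array reached the 40th percentile, so the rise is given as a bound, at least 3.18-fold from that percentile (adjusted p = 0.0104). The call ended without atfs-1(et18) replicate 1 or replicate 3 (highest adjusted p = 0.0747). The other members of the subfamily did not pass. For cyp-14A2 the signals were 194, 190 and 257 against 293, 301 and 237, overlapping between genotypes (log2 change 0.38 ± 0.21, adjusted p = 0.414). For cyp-14A5 they were 294, 324 and 314 against 126, 162 and 235, with every mutant array below every wild-type array (log2 change -0.88 ± 0.25, adjusted p = 0.112; a call with array weights, adjusted p = 0.0199). The cyp-14A5 probe set is of the type that can bind several transcripts. The fifth gene, cyp-14A3, was below the 40th percentile on all 6 arrays.

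Among the cyp-33C genes, cyp-33C8 and cyp-33C4 rose. The signals of cyp-33C8 were 266, 466 and 462 in wild-type and 3182, 4669 and 2879 in mutant worms. The lowest mutant array was over the highest wild-type array by more than the whole range of the wild-type arrays. The log2 change was 3.18 ± 0.27 (SE, limma adjusted p = 0.000426), or 9.08-fold, and each of 17 alternatives called it. All 6 arrays were well above the 40th percentile, so that this fold does not rest on a dim signal.

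The signals of cyp-33C4 were 96.5, 141 and 127 in wild-type and 292, 344 and 234 in mutant worms, with no overlap. Its rise of 1.26 ± 0.25 on the log2 scale passed the threshold (adjusted p = 0.0266), and 7 of 16 alternatives did not call it, including both other scalings (highest adjusted p = 0.132). This probe set is marked as able to bind related transcripts. For cyp-33C9 the signals were 230, 273 and 276 against 438, 443 and 350, higher on every mutant array but not called (log2 change 0.66 ± 0.19, adjusted p = 0.107; 0.0321 with array weights).

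A change of the opposite sign was measured for cyp-33C3, with signals of 111, 177 and 119 against 85.9, 109 and 46.3 and a log2 change of -0.81 ± 0.39 (adjusted p = 0.333). The remaining tested cyp-33C probe sets, for cyp-33C5 and cyp-33C7, had log2 changes of -0.01 and 0.30, the first with a sign that turned under other settings. In all, 6 of 11 cyp-33C probe sets were tested, 2 rose and 0 fell, beside 2.63% of all probe sets called higher and 1.30% lower. The median change of the 6 tested was 0.48. Outside this subfamily cyp-33A1 had a change of 0.19 ± 0.20. The gene cyp-33E2, which is known to make eicosanoids from polyunsaturated fatty acids, had signals of 208, 191 and 229 against 377, 192 and 340 (log2 change 0.48 ± 0.27, adjusted p = 0.426). On 1 mutant array it was thus within the wild-type range.

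The cyp-35 genes, best known for their induction by foreign compounds, held all 3 falls. Of 8 tested probe sets 3 fell and 0 rose, beside 1.30% of all probe sets called lower, and the arrays did not overlap for 6, beside 23.3% of all. A negative change was measured for 7, and the median log2 change was -0.98 (-0.97 with cyp-35D1 at its bound). The counts of falls, of probe sets without overlap and of negative changes each include cyp-35D1. That probe set entered through the wild-type arrays alone and could not enter without differing. Of the 8 probe sets 2 are of 1 gene, cyp-35C1. Both are among those without overlap and those with a negative change, so the 8 are not separate genes. The signals of cyp-35A3 were 1010, 1125 and 1030 in wild-type and 522, 476 and 613 in mutant worms. These are tight groups with a clear gap, and the log2 change was -0.98 ± 0.16 (SE, limma adjusted p = 0.0120). The call ended without wild-type replicate 2, atfs-1(et18) replicate 1 or atfs-1(et18) replicate 2 (highest adjusted p = 0.0756).

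Of cyp-35C1, 2 probe sets were measured. The probe set that passed had signals of 2453, 2103 and 1671 against 961, 774 and 1173 (log2 change -1.10 ± 0.21, adjusted p = 0.0221). In 5 of 16 alternatives the call was lost. It is of the type that can bind several transcripts. The other, specific to 1 transcript by its suffix, had signals of 783, 773 and 566 against 321, 106 and 404. Here too the groups did not overlap, but mutant replicate 2 lay well below the other mutant arrays, and the change of -1.55 ± 0.45 was not called (adjusted p = 0.112; 0.0391 with array weights).

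The signals of cyp-35D1 were 149, 158 and 96.6 in wild-type and 51.0, 39.9 and 31.6 in mutant worms. No mutant array reached the 40th percentile, so the fall is at least 1.94-fold (adjusted p = 0.0424). Of the 9 calls this one was lost most often, in 8 of 16 alternatives, among them the omission of any 1 array.

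The genes cyp-35A4, cyp-35A5 and cyp-35A2 had lower means in the mutant without a call. For cyp-35A4 the signals were 301, 349 and 366 against 199, 113 and 223 (log2 change -0.98 ± 0.28, adjusted p = 0.105; 0.0327 with array weights). For cyp-35A5 they were 205, 186 and 187 against 137, 120 and 168, again with no overlap (log2 change -0.45 ± 0.22, adjusted p = 0.352). The gene cyp-35A2, which has been linked to fat storage, had signals of 1777, 3438 and 3026 against 1963, 1775 and 2164. Wild-type replicate 1 was as low as the mutant arrays. The log2 change was -0.43 ± 0.24 (adjusted p = 0.413), and it was called without that array (-0.72, adjusted p = 0.0323) and with array weights (-0.64, adjusted p = 0.0427).

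The exception in sign was cyp-35B1, a gene known as a target of the insulin-pathway factor DAF-16. Its signals were 56.5, 110 and 98.8 in wild-type and 166, 159 and 95.0 in mutant worms, with overlap (log2 change 0.68 ± 0.37, adjusted p = 0.396).

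**Figure D3:**
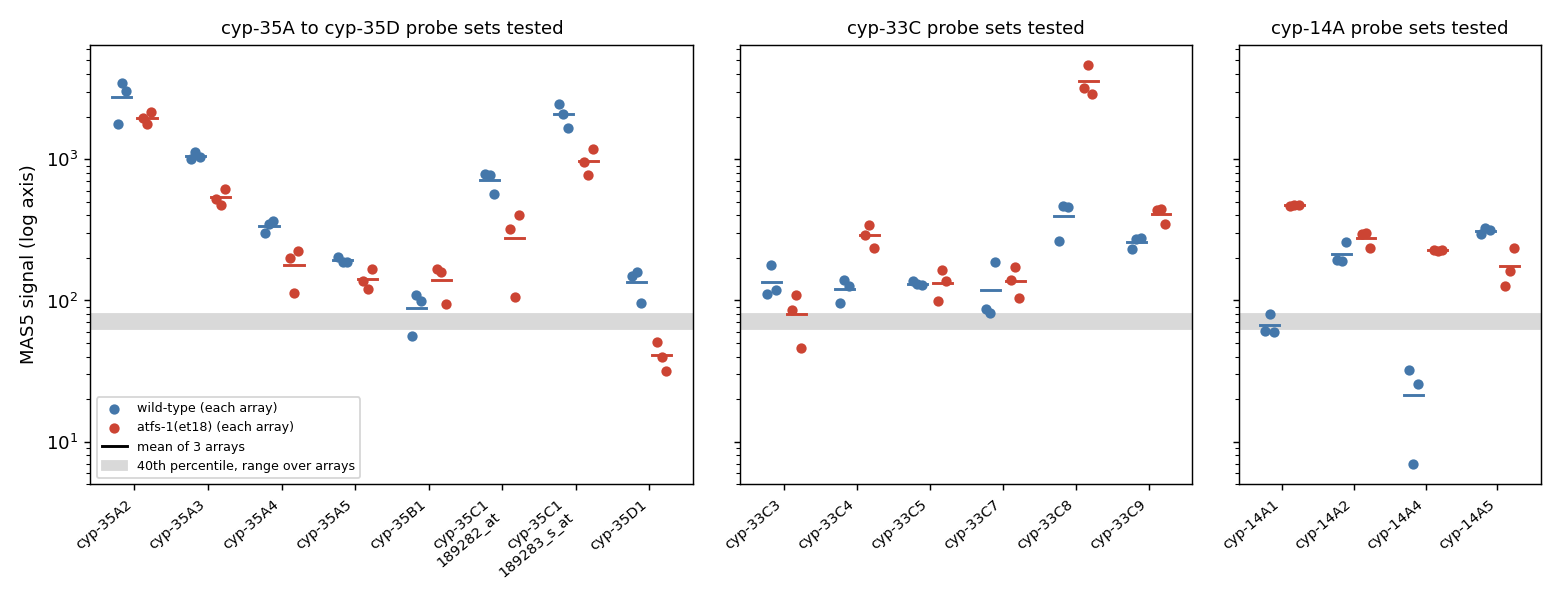
MAS5 signal (log axis) on each array for the tested probe sets of cyp-35 (left), cyp-33C (middle) and cyp-14A (right), with blue points for wild-type, red points for atfs-1(et18), bars for the mean of 3 arrays and a grey band for the range of the 40th percentile over the arrays. Red lies below blue in 7 of the 8 cyp-35 columns by mean, while cyp-33C8, cyp-14A1 and cyp-14A4 have red points far above blue.

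Because cyp-35 genes are expressed in the intestine, intestinal markers were read on the same arrays. Of 11 intestinal markers tested 1 fell, the peptide transporter gene pept-1, and 0 rose, beside 1.37% of all genes called lower and 2.69% higher by their brightest probe set, while 8 had a negative change and the median was -0.27. The summed signal of the list was 94290 to 127206 on wild-type and 80424 to 118641 on mutant arrays, and no marker was at 0. All 5 yolk protein genes measured, which are also intestinal, fell, with summed signals of 6925 to 11409 against 1091 to 1686. The probe sets of vit-4 and vit-5 among them can bind related transcripts and may share signal. Some other tissues had shifts of similar size with no call. Of the neuronal markers 8 of 9 were negative (median -0.37), of body wall muscle 8 of 8 (median -0.30) and of the hypodermis 6 of 8 (median -0.27). For each of these lists 3 were at an unadjusted p under 0.05 (limma), beside 17.4% of all genes. Not all lists shifted so: the median was -0.02 for sperm markers (4 of 7 negative) and -0.10 for molting-cycle markers (6 of 10 negative). For germline and oocyte markers it was 0.12 (2 of 9 negative). The part of these shifts in the cyp-35 values was not tested.

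The cyp-34A and cyp-36A genes gave no call. Of 9 cyp-34A probe sets 2 were tested, cyp-34A8 with a log2 change of 0.21 ± 0.26 and cyp-34A9 with -0.49 ± 0.31. The gene cyp-36A1, known to act downstream of the hypoxia factor HIF-1, had signals of 114.2, 106 and 89.1 against 114.3, 130 and 112. Its groups barely differed (log2 change 0.21 ± 0.26, adjusted p = 0.753). The single tested probe set of cyp-23A1 had a change of 0.03 ± 0.25, and its other probe set was dim, at 24.9 to 78.2 on all arrays.

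Of the worm enzymes related to the vertebrate CYP3 group, cyp-13, cyp-25 and cyp-43, 1 member was called, cyp-13A8. Calls were 1 of 5 tested probe sets for cyp-13, 0 of 2 for cyp-25 and 0 of 1 for cyp-43, beside 3.93% of all. The called probe set entered through the mutant arrays alone and could not enter without differing. The signals of cyp-13A8 were 40.95, 33.1 and 12.2 in wild-type and 198, 207 and 178 in mutant worms. All wild-type arrays were below the 40th percentile and all mutant arrays above it, a rise of at least 2.73-fold (limma adjusted p = 0.0134). The call ended when any 1 mutant array was left out (highest adjusted p = 0.0893). The other tested cyp-13A genes, cyp-13A2 and cyp-13A10, had log2 changes of -0.10 and -0.40, and 6 probe sets of the subfamily were too dim to test.

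For cyp-25A2 the signals were 1116, 2059 and 2330 in wild-type and 1549, 2042 and 1268 in mutant worms. The wild-type arrays alone spanned the whole mutant range, and the log2 change was -0.14 ± 0.29 (adjusted p = 0.861). Both probe sets of cyp-13B1 were near 0, at -0.07 ± 0.18 and 0.14 ± 0.26, and cyp-43A1 was at 0.13 ± 0.18. The signs of these 4 values, and those of cyp-13A2 and cyp-23A1, turned when single arrays were left out.

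The enzymes related to the vertebrate CYP4 fatty acid hydroxylases are cyp-29, cyp-31, cyp-32, cyp-37 and cyp-42. Here cyp-37B1 rose, with signals of 103, 107 and 93.6 in wild-type and 469, 427 and 420 in mutant worms. Both groups were tight, every wild-type array was above the 40th percentile, and the log2 change was 2.12 ± 0.19 (SE, limma adjusted p = 0.000613), or 4.34-fold. It was called in each of 17 alternatives, as were cyp-14A1 and cyp-33C8. Its relative cyp-37A1 had signals of 997, 1064 and 1297 against 920, 960 and 746, lower on every mutant array but not called (log2 change -0.35 ± 0.17, adjusted p = 0.344).

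The cyp-31A genes are known to act with the P450 reductase gene emb-8 in making lipids of the eggshell. For cyp-31A2 the signals were 270, 188 and 233 in wild-type and 356, 372 and 336 in mutant worms, a log2 change of 0.64 ± 0.20 (adjusted p = 0.139; 0.0209 with array weights). For cyp-31A3 they were 149, 79.7 and 128 against 167, 192 and 177 (0.63 ± 0.29, adjusted p = 0.309). For cyp-31A1, listed as a pseudogene and read by a probe set that can bind several transcripts, they were 220, 289 and 261 against 426, 330 and 518 (0.71 ± 0.22, adjusted p = 0.139). In these 3 genes every mutant array was above every wild-type array. Over all probe sets tested, the arrays did not overlap, in either direction, for 23.3%. The fourth, cyp-31A5, had signals of 228, 142 and 159 against 108, 64.7 and 169 and a change of -0.71 ± 0.38. The probe sets of cyp-31A1 and cyp-31A2 may share signal between these close copies, so their values are not independent.

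Germline markers were read beside the cyp-31A values. Of 9 germline and oocyte markers limma called 0, with 2 at an unadjusted p under 0.05 (mex-5 and syp-3; 17.4% of all genes were), and 7 had a positive change. Over all 10 markers with a probe set, the mean log2 signal was 9.50, 8.32 and 8.61 on the wild-type arrays. On the mutant arrays it was 8.95, 9.03 and 9.29, so the groups overlapped. These means include nos-2, too dim to test, with signals of 73.1, 7.70 and 66.8 in wild-type and 25.8, 74.2 and 61.3 in mutant worms. Its value on wild-type replicate 2 lowers the mean of that array. The summed signal of the same 10 markers was 6499 to 13887 against 9109 to 11767, with no marker at 0. The part of germline content in the cyp-31A values was not tested.

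The remaining members of this group did not pass. The log2 change was 0.73 ± 0.35 for cyp-32B1 and -0.17 ± 0.18 for cyp-29A2. For cyp-32A1 both probe sets were lower, by means of -0.48 ± 0.38 and -0.57 ± 0.33, and for cyp-42A1 they were at -0.18 ± 0.22 and -0.04 ± 0.19. The mitochondrial-type gene cyp-44A1, of interest beside a mitochondrial stress factor, had signals of 499, 534 and 553 in wild-type and 731, 619 and 492 in mutant worms. The mutant arrays spread across the wild-type range (log2 change 0.20 ± 0.19, adjusted p = 0.663).

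**Figure D4:**
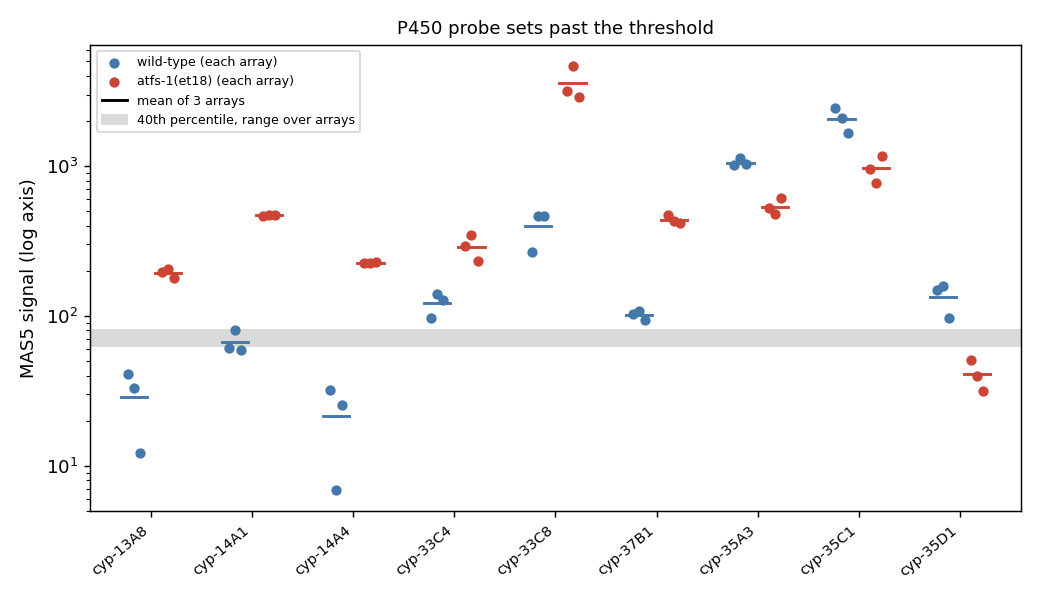
MAS5 signal (log axis) on each of the 6 arrays for the 9 P450 probe sets past the threshold, with the rises first and each direction in order of symbol, with blue points for wild-type, red points for atfs-1(et18), bars for means of 3 arrays and a grey band for the range of the 40th percentile. The groups do not overlap in any column; cyp-14A4 and cyp-13A8 lie under the band in wild-type and cyp-35D1 under it in the mutant.

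The 32 untested probe sets never exceeded a signal of 89.2 on any array. They included 7 of the 9 cyp-34A probe sets, both of cyp-33D and the single one of cyp-33B, as well as cyp-35A1 and cyp-29A3. When all probe sets were tested with no filter, limma called 0 of the 32, with 1 at an unadjusted p under 0.05 (beside 5.55% of all probe sets the filter had left out) and a smallest adjusted p = 0.182. The genotypes did not overlap for 2 of the 32, beside 23.3% of all probe sets tested. The share over all probe sets the filter had left out was not computed. Both are named only to complete the count, and neither was called with no filter. The pseudogene cyp-29A1 had signals of 59.0, 69.8 and 44.5 in wild-type and 28.2, 5.02 and 6.87 in mutant worms. The signals of cyp-13A6 were 26.6, 1.76 and 28.8 against 29.9, 89.2 and 40.9. In both, all arrays but 1 were below the 40th percentile.

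Many P450 genes lie side by side in the genome, and the order of genes in the RefSeq table of assembly WBcel235 was used to see what neighbours did. That table holds 80 P450 genes, and 47 of them stood in 14 runs, where a run allows at most 1 other protein-coding gene between members. The run of cyp-14A1, cyp-14A2, cyp-14A3 and cyp-14A4 held both cyp-14A rises, at its ends, and cyp-14A5 is not in it. Its 3 tested genes all had positive changes. Of these, cyp-14A4 entered through the mutant arrays alone and could not enter without differing, and cyp-14A2 overlapped between genotypes. In the run of cyp-33C4, cyp-33C3, cyp-33C5, cyp-33C6 and cyp-33C7, by contrast, the called rise of cyp-33C4 stood next to the negative change of cyp-33C3. The most changed cyp-33C gene, cyp-33C8, is in no such run. The neighbours cyp-35A3 and cyp-35A4 had nearly equal log2 changes, both -0.98. In the run of cyp-35A5, cyp-35B1, cyp-35B2 and cyp-35B3, the 2 tested genes had opposite signs. The run of 9 cyp-13A genes held cyp-13A8 at 1 end, and the other tested gene in it, cyp-13A2, was near 0. Where neighbours are close copies, their probe sets can share signal.

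Genes that supply P450 enzymes with electrons gave no call. Of 5 tested, limma called 0, beside 4.06% of all genes by their brightest probe set, with 1 at an unadjusted p under 0.05, beside 17.4% of all. That 1 was cytb-5.1, a cytochrome b5 gene, with signals of 4360, 5119 and 4998 against 3652, 3032 and 3119 and a log2 change of -0.56 ± 0.14 (adjusted p = 0.0707; 0.0236 with array weights). The reductase gene emb-8 had signals of 587, 630 and 792 against 798, 1033 and 736, which overlapped (0.35 ± 0.19, adjusted p = 0.408). The P450 gene daf-9, which carries no cyp symbol and makes the steroid hormones dafachronic acids, had signals of 198, 158 and 181 against 115, 133 and 150. Each mutant array was lower, but the change of -0.43 ± 0.23 was not called (adjusted p = 0.387). Of 5 tested genes of dafachronic acid synthesis and sterol supply limma also called 0, with 2 at an unadjusted p under 0.05: the Rieske oxygenase gene daf-36 (-0.74 ± 0.23, adjusted p = 0.137) and the sterol methyltransferase gene strm-1 (0.61 ± 0.20, adjusted p = 0.155).

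Of 5 tested genes that handle heme, the cofactor that worms must take from food, 1 rose, 1 fell and 3 did not pass, beside 4.06% of all genes called. The heme-responsive gene hrg-9 had signals of 87.5, 106 and 148 in wild-type and 614, 643 and 776 in mutant worms, all mutant arrays being several times the wild-type arrays (log2 change 2.60 ± 0.24, limma adjusted p = 0.000654, called in each of 17 alternatives). The heme transporter gene hrg-1 had signals of 529, 548 and 428 against 247, 238 and 261 and fell, with a log2 change of -1.01 ± 0.18 (adjusted p = 0.0168). In 5 of 16 alternatives this call was lost.

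Of 8 genes that make polyunsaturated fatty acids, which are P450 substrates, or that open P450-made epoxides, 1 fell and 0 rose, beside 1.37% of all genes called lower. The desaturase gene fat-3 had signals of 3879, 4346 and 3695 against 2436, 2198 and 2076 (log2 change -0.83 ± 0.14, adjusted p = 0.0132), and 6 of 17 alternatives did not call it. The epoxide hydrolase gene ceeh-1, named after its values were seen, had a change of 0.68 ± 0.18 (adjusted p = 0.0872). Among 23 regulators of detoxification and stress, limma called 0, with 5 at an unadjusted p under 0.05, beside 17.4% of all genes. The smallest p values were those of rhy-1, an inhibitor of the HIF-1 pathway (-0.92 ± 0.22, adjusted p = 0.0559), and of pqm-1, a transcription factor of stress and growth genes (1.07 ± 0.30, adjusted p = 0.107).

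Set beside other detoxification families on the same arrays, 6 of 46 P450 probe sets were called upward and 3 downward, while 10 of 50 UDP-glucuronosyltransferase probe sets were called upward and 3 downward. Of 26 glutathione S-transferase probe sets 1 was called upward and 1 downward, and of all probe sets tested 2.63% were called upward and 1.30% downward. The median size of change was 0.41 and 0.43 log2 units in these families, against 0.48 in the P450 family and 0.25 over all probe sets. Of 26 short-chain dehydrogenase (dhs) probe sets 1 was called upward and 1 downward, with a median size of 0.22. Of 11 P-glycoprotein (pgp) probe sets 1 was called upward and 0 downward, with a median size of 0.49. These are counts without a test of the difference between families.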

How the data were processed

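The deposited values are intensity on a linear scale, 1 per probe set, from MAS5, per the submitters' processing notes. Neither its version, its scaling target nor its detection calls are given in those sources. The 2% trimmed mean was 500.2 on each array, so each had been scaled by 1 factor. MAS5 subtracts background, so ratios of dim probe sets are uncertain. Each value was turned to log2 with no offset. After 77 control probe sets were left out, 13792 of 22548 were above the 40th percentile of their array on at least 3 of 6 arrays and were tested.

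Differences (mutant minus wild-type) were fitted in R 4.3.3 with limma 3.58.1, using lmFit and eBayes with its trend option. Tests were two-sided, with Benjamini-Hochberg adjustment over all probe sets tested and a threshold of 0.05. On simulated arrays with these means and spreads, 200 of 13792 probe sets were given a change, whereas 542 were called in the data. The same fit recovered 31% of changes of 2-fold and 69% of those of 4-fold. The share recovered depends on how many probe sets change. The simulated errors were independent between probe sets, with no deviation shared across an array, so these rates hold for that setting only and not for this comparison. A fold against a genotype under the 40th percentile on all its arrays is a bound. Symbols came from the platform annotation (20766 probe sets with 1 symbol, 887 with several, of which 2 hold P450 genes, and 895 with none), and all 78 P450 symbols stood unchanged in the gene table. Suffixes _s_at and _x_at mark probe sets that can bind several or related transcripts. Genes of other lists were read by their brightest probe set.

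The members and all lists were chosen with earlier results of these data known. Named were each member called, the 8 next by p, the brightest tested member of each other subfamily, the 3 brightest, members with several probe sets, cyp-44A1, and up to 4 called or 2 uncalled genes of each list; other names are further members given to complete a group. Alternatives were quantile and median scaling, adding 16 or 64 to each signal, testing every probe set, a 60th-percentile filter, array weights, 2 other variance priors, a block for the replicate number, probe sets specific to 1 transcript, and each array left out in turn. With 3 arrays a genotype the smallest two-sided p of an exact test is 0.1. Promoter and protein sequences were not used here. Figures were drawn with matplotlib 3.10.9.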

Additional observations from a re-analysis of the deposited data

How the results depend on the processing

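Under 17 alternatives the number of P450 probe sets that rose stayed between 3 and 8 (6 as reported), with 3 to 6 when 1 array was left out, the lowest without atfs-1(et18) replicate 1. The number that fell (3) was 7 with array weights and 1 with the replicate block, and 0 to 3 with 1 array left out. It was 0 without wild-type replicate 2, atfs-1(et18) replicate 1 or atfs-1(et18) replicate 2. In these 3 fits 6, 6 and 7 of 46 were lower at an unadjusted p under 0.05 (limma), against 6 with all arrays. Of all genes 17.4% were at that level in either direction with all arrays. The share with 1 array left out was not computed, so these counts do not show that the falls persist. Of all probe sets, 542 were called, against 1637 with array weights, 336 with the replicate block, 313 among probe sets specific to 1 transcript, and 202 to 871 with 1 array left out. The median P450 change of -0.03 became 0.14 with the 60th-percentile filter, which tests 29 members, and ran from -0.09 to 0.01 with 1 array left out. The replicate numbers were not taken as pairs: deviations of same-numbered arrays correlated at 0.17, 0.18 and -0.40 for replicates 1, 2 and 3. Of the 9 called members the block left 6 and ended the calls of cyp-33C4, cyp-35C1 and cyp-35D1. Signs turned for members near 0 with 1 array left out: cyp-13B1 ran from -0.170 to 0.0182 and, on its other probe set, from -0.0837 to 0.337, cyp-23A1 from -0.0851 to 0.140, cyp-25A2 from -0.463 to 0.0679, cyp-43A1 from -0.00112 to 0.241, cyp-33C5 from -0.176 to 0.180 and cyp-13A2 from -0.490 to 0.241. With median centring cyp-33C5 was at 0.000186. The cause of these shifts was not tested. The change of cyp-14A4, cyp-13A8 and cyp-35D1, dim in 1 genotype, is known only as a bound.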
